A study of Mus musculus with 24 samples.

Results

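Rsl24d1 and 8 other late pre-60S maturation factors (Gtpbp4, Mrto4, Nmd3, Lsg1, Eif6, Sbds, Efl1 and Zfp622) were read by gene symbol in RNA-seq of mouse CGR8 ESCs. The 9 members are 9 of 54242 symbols in the table, and all 9 passed the filter on low values that kept 16447 genes for testing. They were listed by name, with earlier results of these data known.

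CGR8 is a mouse embryonic stem cell line. The 24 libraries form 8 groups of 3 independent samples. At day 0, cells in serum and LIF had received a non-targeting siRNA pool (si-CTL) or a pool against Rsl24d1 (si-Rsl24d1), each without or with a doxycycline-induced rescue of RSL24D1. At day 4, the same 4 combinations had then been cultured with 10 nM retinoic acid (RA). The rescue construct is an ectopic mouse Rsl24d1 open reading frame under a doxycycline promoter. The labels give cells without doxycycline an empty vector, so the effects of doxycycline, of the vector and of ectopic Rsl24d1 on other genes cannot be told apart in the comparisons with rescue. For the day 0 cells the labels give 48 h from transfection to collection in the description and 72 h in the protocol. For the day 4 cells they give only the 72 h of the protocol, which is the same for all libraries. The time of each group is thus uncertain, and day and any difference in that time cannot be told apart either. The labels and the study's methods differ on several points of culture and library preparation, listed with the processing.

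The large ribosomal subunit leaves the nucleolus as an immature pre-60S particle that carries maturation factors in place of some ribosomal proteins. RSL24D1 holds the site of its homologue RPL24, and MRTO4 holds that of the stalk protein RPLP0. The GTPase GTPBP4 docks beside RSL24D1, NMD3 adapts the particle to the exportin XPO1, and in the cytoplasm ZFP622, the GTPase LSG1, and SBDS with the GTPase EFL1 act in the steps that release the last factors, NMD3 and the joining inhibitor EIF6 among them.

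Rsl24d1 lies at chr9:73113426-73123333 on the plus strand of GRCm38 and has 4 transcripts in the GENCODE vM21 annotation. The principal one, Rsl24d1-201, has 6 exons and 1543 bases, of which 489 encode 163 residues. RefSeq promoter windows were found for 7 of the 9 members (none for Eif6 and Sbds). The 250 bases before the RefSeq start are shown for Rsl24d1, the gene that was targeted, and for Gtpbp4, the member with the next largest fall after knockdown at day 0. Each is written 5′ to 3′ on the gene's own strand (GRCm38.p6, chr9:73113219-73113468, plus strand, and chr13:8996013-8996262, minus strand). Capitals mark the letters CCGGAA, one form of an ETS family site, whose core is GGAA, or their reverse complement TTCCGG.
Rsl24d1: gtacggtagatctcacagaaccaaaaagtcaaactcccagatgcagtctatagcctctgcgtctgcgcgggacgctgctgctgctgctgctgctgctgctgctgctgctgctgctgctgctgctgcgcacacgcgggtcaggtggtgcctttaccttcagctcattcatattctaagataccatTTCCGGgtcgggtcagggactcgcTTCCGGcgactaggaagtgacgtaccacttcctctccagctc
Gtpbp4: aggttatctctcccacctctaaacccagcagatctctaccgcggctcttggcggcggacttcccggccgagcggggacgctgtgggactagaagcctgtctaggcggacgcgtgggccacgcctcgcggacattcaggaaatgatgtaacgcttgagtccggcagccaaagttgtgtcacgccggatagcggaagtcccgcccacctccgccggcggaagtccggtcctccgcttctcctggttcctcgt

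The Rsl24d1 window holds the capital letters at 2 places and the Gtpbp4 window at none, although the Gtpbp4 window does hold the shorter GGAA. On both strands of the full 300-base windows (to 50 bases after the start), the letters were present in 5 of the 7 members, Rsl24d1, Nmd3, Lsg1, Efl1 and Zfp622, against 14.9% of all 32851 windows. The E-box CACGTG was present in 1 of 7 (Nmd3, 7.15% of all windows) and TGACGT in 1 of 7 (Rsl24d1, 7.51%). GC content in the 250 bases before the start was 40.4% for Lsg1 and 57.2% (Rsl24d1) to 64.4% (Efl1) for the other members. Its median over all windows was 52.4%. The shares of all windows were not matched for GC content, so they do not show whether the letters are particular to these members. Single matches from the other 4 members, with 12 bases on each side, are shown to let their surroundings be compared.
Nmd3: agcacgcgggatTTCCGGttctcctatcgc
Lsg1: ctcttacatcacTTCCGGgttcacagccgg
Efl1: aaacgacgtggcTTCCGGtgatgttctaga
Zfp622: aaacttcgtcatTTCCGGggacccaggcgg

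These matches begin 52, 19, 67 and 51 bases before the start in Nmd3, Lsg1, Efl1 and Zfp622, and those of Rsl24d1 begin 66 and 42 bases before it. A match is a run of letters and was not read as a bound site.

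Expression was read on the deposited log2(TPM + 1) scale. TPM is a gene's share of the transcripts of a library, adjusted for length and scaled to a fixed total, and the depth behind it is unknown. The 10 pluripotency markers were all above a log2(TPM + 1) of 1 in every library, with a mean of 7.56 to 8.12. At day 4 every library had a higher mean than any at day 0 for 7 RA response genes (1.27 to 1.55 at day 0, up to 2.29 at day 4), 6 endoderm genes (0.55 to 0.87, then 1.21 to 2.10) and 7 fibroblast genes (1.48 to 1.96, then 3.04 to 3.97). The highest of these means were those of unrescued si-Rsl24d1 libraries, and 2 to 4 of the RA response genes, 1 to 5 of the endoderm genes and 1 to 4 of the fibroblast genes stayed below 1. From day 0 to day 4 in unrescued si-CTL cells, the group means of Cyp26a1 (RA response, 1.48 to 1.39), Sox7 (endoderm, 0.40 to 0.34) and Thy1 (fibroblast, 2.89 to 1.45) fell. The other genes of these lists rose. Of the pluripotency markers, Nanog (7.53 to 8.32) and Dppa5a (11.36 to 12.38) rose there and the others fell. The part of these marker changes in the results at day 4 was not tested. In these bulk samples, fewer cells of a type and less RNA per cell cannot be told apart. Below, a gene passed when its limma test gave a Benjamini-Hochberg adjusted p below 0.01 over all 16447 genes, and is called differentially expressed when it also changed by more than 1.8-fold.

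In si-CTL cells at day 0 without rescue, the members covered a wide range of levels. Mean TPM was 247 ± 11.3 (SD, n = 3) for Nmd3, 210 ± 7.61 for Gtpbp4, 163 ± 5.05 for Eif6, 152 ± 4.45 for Mrto4 and 141 ± 6.08 for Rsl24d1. Lsg1 followed at 68.7 ± 5.11, Zfp622 at 58.1 ± 3.66, Sbds at 58.1 ± 3.91 and Efl1 at 13.2 ± 0.905. In this order the libraries of Mrto4 and Rsl24d1 overlapped, as did those of Zfp622 and Sbds, while all other neighbours were separated. Nmd3 stayed first, Gtpbp4 second and Efl1 last in all 8 groups, so the place that moved most was that of Rsl24d1, which ranged from the third to the eighth.

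**Figure D1:**
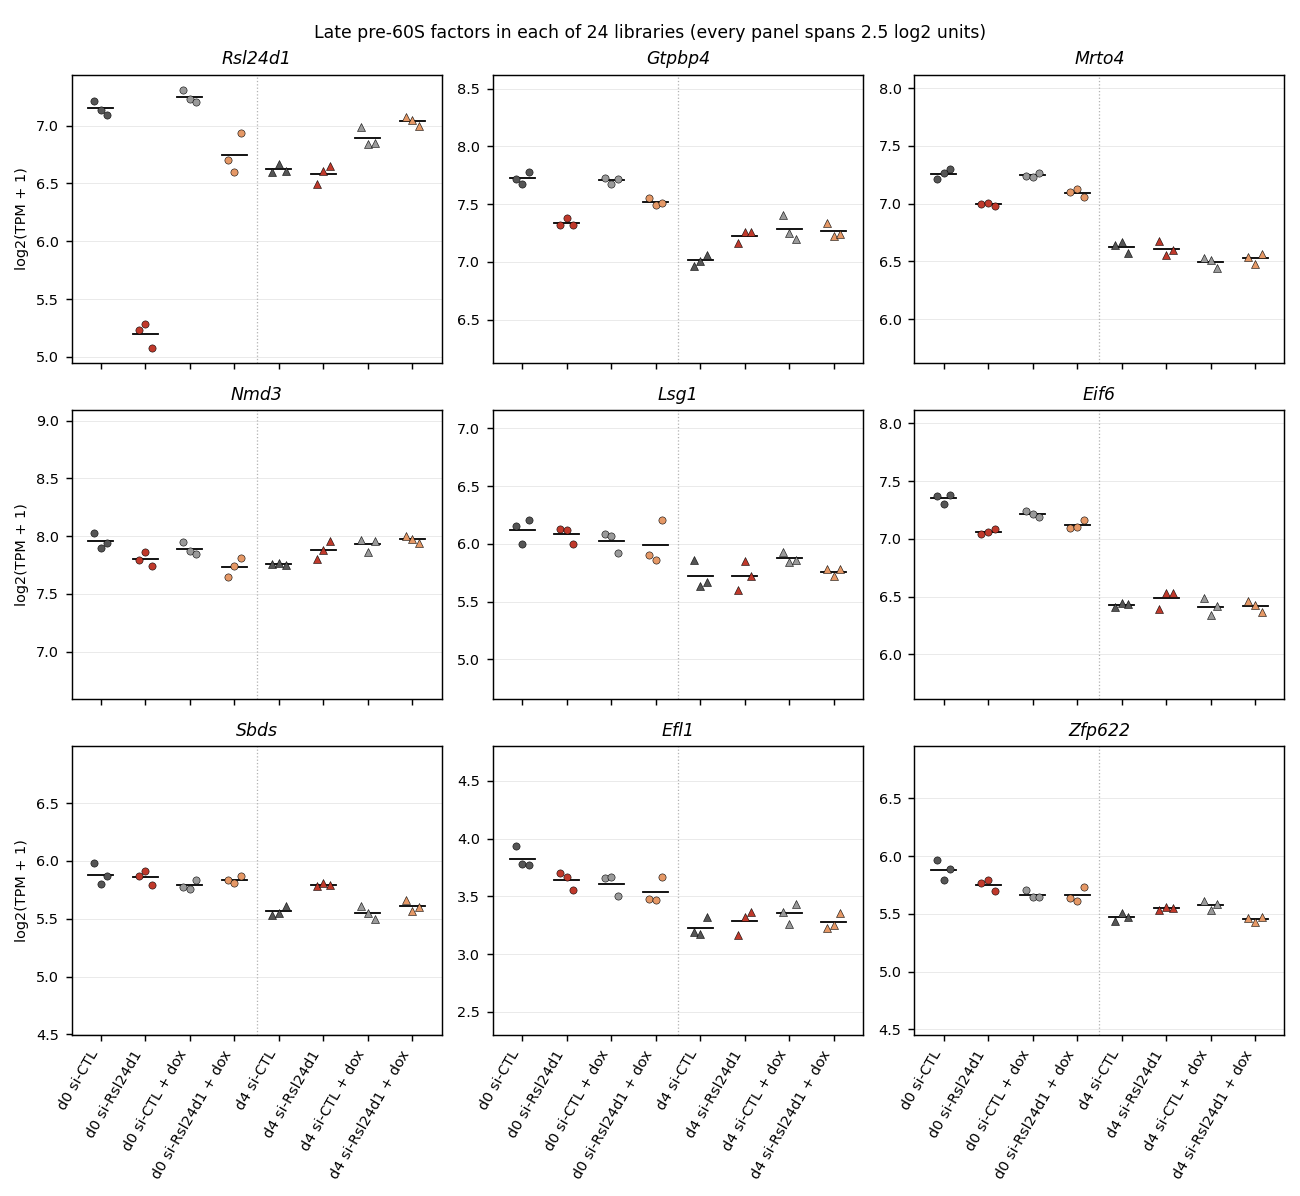
log2(TPM + 1) of each member (y axis, 2.5 units in every panel) in the 8 groups (x axis, d for day and dox for the rescue). Each point is 1 library (circles day 0, triangles day 4) and each line a group mean of 3 libraries. Rsl24d1 in unrescued si-Rsl24d1 cells at day 0 lies at 5.07 to 5.28, below all its other libraries, whereas Eif6 and Mrto4 separate mainly by day.

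Rsl24d1 was lower in every si-Rsl24d1 library than in every si-CTL library at day 0 without rescue. It measured 148, 140 and 136 TPM in the si-CTL libraries and 36.6, 37.9 and 32.7 TPM in the si-Rsl24d1 libraries. The mean fell to 25.3% of that of si-CTL, a log2 fold change of -1.95 ± 0.07 (SE, limma adjusted p = 3.2e-14). This took Rsl24d1 from the fifth to the eighth place among the members, with only Efl1 below it. Rsl24d1 is the target of the siRNA, so its fall is a check of the labels.

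The knockdown at day 0 was accompanied by smaller falls of GTPBP4, EIF6 and MRTO4 mRNA. Of the 9 members, 4 fell and 0 rose (0 rose at an unadjusted p below 0.05 too, limma), where 16.1% of all tested genes fell and 14.3% rose. The 4 include Rsl24d1 itself, whose fall was set by the siRNA. The other 3 were Gtpbp4, Eif6 and Mrto4. Gtpbp4 measured 210, 203 and 218 TPM in si-CTL and 158, 165 and 159 TPM in si-Rsl24d1 libraries. Eif6, whose product keeps the subunits apart, measured 165, 157 and 166 against 131, 133 and 134 TPM. For Mrto4 the values were 147, 153 and 156 against 127, 128 and 125 TPM. In all 3 genes the groups did not overlap. The log2 fold changes were -0.39 ± 0.05 for Gtpbp4 (limma adjusted p = 1.4e-06), -0.29 ± 0.04 for Eif6 (1.0e-05) and -0.26 ± 0.04 for Mrto4 (1.1e-05), so that Rsl24d1 was the only member called differentially expressed. Each of these 4 calls held with any 1 of the 6 libraries left out. Nmd3 also passed without replicate 2 of si-CTL or of si-Rsl24d1 (adjusted p of 0.00996 and 0.00814), and Zfp622 without replicate 2 of si-CTL (0.0025).

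The other 5 members did not pass at day 0. Their log2 fold changes were -0.16 for Nmd3 (limma adjusted p = 0.013), -0.13 for Zfp622 (0.017), -0.19 for Efl1 (0.050), -0.04 for Lsg1 (0.74) and -0.03 for Sbds (0.69). All 9 differences, that of the targeted Rsl24d1 among them, were below 0, with a median of -0.19 beside -0.01 over all tested genes. The libraries of the groups did not overlap for 6 members, again with Rsl24d1 among them, against 27.3% of all genes that were lower without overlap. After median of ratios scaling of the TPM, 7 members passed, all lower, since Nmd3 (-0.17, adjusted p = 0.00034), Zfp622 (-0.15, 0.0027) and Efl1 (-0.20, 0.0029) were then added. Here and below, shares of all genes were counted for the unscaled fit only, so none stands beside the rescaled counts. The share of all genes without overlap was counted only here and from day 0 to day 4 in unrescued si-CTL cells. In the other comparisons, how common a lack of overlap was is thus unknown. Lsg1 and Sbds were the exceptions under both scalings, and the 95% intervals of their unscaled differences were -0.22 to 0.14 and -0.12 to 0.07.

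The ribosomal proteins whose sites are held by members did not pass as lower. Rpl24, which takes the site of RSL24D1, had a log2 fold change of 0.02 ± 0.07 (limma adjusted p = 0.83) at levels of 1410, 1478 and 1536 TPM in the si-CTL libraries. Rplp0, which takes that of MRTO4, had one of 0.08 ± 0.03 (0.063). Rpl10, whose loading goes with the release of NMD3, rose by 0.29 ± 0.08 on the log2 scale (0.0068), a call that was lost with median of ratios scaling (0.28, adjusted p = 0.044). Within a library, Rsl24d1 minus Rpl24 was -3.38 ± 0.12 log2 units for si-CTL and -5.35 ± 0.14 for si-Rsl24d1 (SD, n = 3).

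A list of 39 other genes of late pre-60S maturation was read beside the members. At day 0 without rescue, 8 of the 39 fell, 2 rose and 29 did not pass, where 16.1% of all tested genes fell and 14.3% rose. The median log2 fold change of the 39 was -0.11, beside -0.01 over all tested genes, and none of the 39 was differentially expressed. The 3 largest falls were those of Senp3, a SUMO protease of the rixosome-associated complex (-0.48), of Dnajc21, a cytoplasmic cochaperone in factor recycling (-0.45), and of Zfp593, a zinc finger factor of the export stage (-0.29). Rpl10 and Nsa2, a nuclear factor (0.15), were the 2 that rose, and neither passed after median of ratios scaling. More genes of the list passed as lower after that scaling and no gene as higher. Senp3 (-0.49), Dnajc21 (-0.46) and Zfp593 (-0.30) again fell most. By role, 4 of 19 nuclear maturation genes, 2 of 8 export genes and 2 of 6 recycling genes fell, and 0 of the 6 late-loaded ribosomal proteins did (0 at an unadjusted p below 0.05). Without replicate 1 of si-CTL the calls among the 39 went from 10 to 6, all of them falls.

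**Figure D2:**
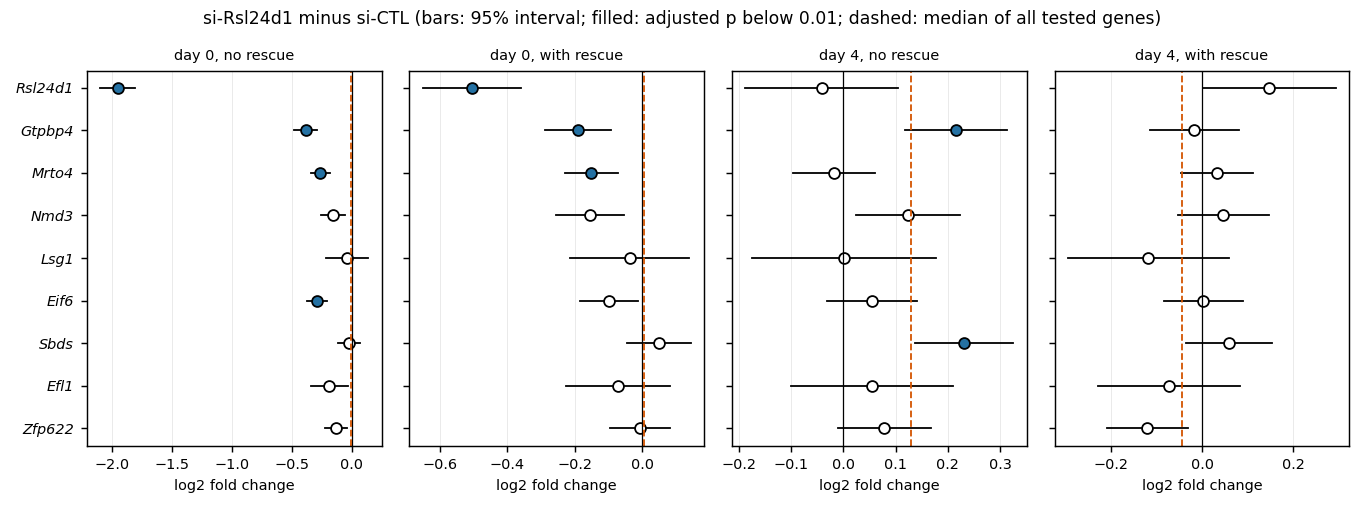
log2 fold change of si-Rsl24d1 over si-CTL (x axis, its range differing between panels) for each member (y axis) in 4 comparisons of 3 against 3 libraries. Points are limma estimates with 95% intervals, filled where the adjusted p was below 0.01, and the dashed line is the median of all tested genes. The 4 filled points of day 0 without rescue lie below 0, and the 2 of day 4 (Gtpbp4 and Sbds) above 0 and above the dashed line at 0.13.

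With the rescue, Rsl24d1 in si-Rsl24d1 cells came nearer to, but stayed below, that of si-CTL cells with rescue. The rescued si-Rsl24d1 libraries held 103, 96.1 and 121 TPM, and the si-CTL libraries with rescue 158, 150 and 147 TPM. The mean was 70.6% of that of si-CTL with rescue, a log2 fold change of -0.50 ± 0.07 (limma adjusted p = 2.2e-05). Fitted on these 2 groups alone, the same difference had an adjusted p of 0.014. Against unrescued si-Rsl24d1 cells, Rsl24d1 rose 2.93-fold (log2 1.55 ± 0.07, limma adjusted p = 7.6e-11) and had the smallest p of all 16447 genes. Its knockdown effect differed between rescued and unrescued cells by 1.45 ± 0.10 on the log2 scale (interaction, limma adjusted p = 1.3e-07).

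Gtpbp4 and Mrto4 were also lower under rescue. Of the 9 members, 3 were lower in rescued si-Rsl24d1 than in rescued si-CTL cells and 0 were higher (0 at an unadjusted p below 0.05, limma), where 5.64% of all genes fell and 8.1% rose. The 3 include Rsl24d1, the gene that the siRNA targets and the rescue supplies. Gtpbp4 measured 211, 203 and 209 TPM in rescued si-CTL and 186, 179 and 181 TPM in rescued si-Rsl24d1 libraries, a log2 fold change of -0.19 ± 0.05 (adjusted p = 0.0055). Mrto4 measured 151, 149 and 153 against 136, 139 and 132 TPM, with a log2 fold change of -0.15 ± 0.04 (0.0061). The groups did not overlap for either gene, but each call was lost in 5 of the 6 fits without 1 library (Gtpbp4 kept it only without rescued si-Rsl24d1 replicate 1, Mrto4 only without replicate 2 of that group), with adjusted p up to 0.026 and 0.032. With median of ratios scaling Mrto4 did not pass (-0.18, 0.044), while Gtpbp4 did and Nmd3 (-0.18, 0.00035) and Eif6 (-0.13, 0.0094) were added. Eif6, which passed without rescue, had a log2 fold change of -0.10 ± 0.04 (0.097). Of the 39 other genes, 1 fell (Bccip, a nuclear partner of EIF6, at -0.16) and 0 rose (1 at an unadjusted p below 0.05). No gene of the list fell without replicate 1 or 2 of either group. After median of ratios scaling more genes of the list passed as lower and no gene as higher. The largest of these falls were those of Nvl, a nuclear maturation gene (-0.21), Dnajc21 (-0.20) and Bccip (-0.19), with limma adjusted p of 0.0018, 0.00048 and 0.0033. For no member other than Rsl24d1 did the interaction of siRNA and rescue pass (1 of 9 members higher, 0 lower and 0 lower at an unadjusted p below 0.05, where 0.906% and 1.18% of all genes were higher and lower), although it was 0.20 ± 0.07 for Gtpbp4 (0.098) and 0.19 ± 0.06 for Eif6 (0.062).

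Comparing the rescued with the unrescued si-Rsl24d1 cells directly, 2 members rose, Rsl24d1 and Gtpbp4, and 0 fell (1 at an unadjusted p below 0.05), where 3.06% of all genes rose and 12.2% fell. The rise of Rsl24d1, which the rescue supplies, was set by the design, so Gtpbp4 was the only other member called. Gtpbp4 rose from 158, 165 and 159 to 186, 179 and 181 TPM, by 0.18 ± 0.05 on the log2 scale (limma adjusted p = 0.0081). This call was lost without any 1 of the 6 libraries, at adjusted p of 0.013 to 0.042, and with the replicate number as a block (0.012). Here the median of all tested genes was -0.11, and after median of ratios scaling 4 members passed, Rsl24d1 (1.69), Gtpbp4 (0.32), Mrto4 (0.24) and Eif6 (0.20), each higher with the rescue. In si-CTL cells at day 0, with against without rescue, no member passed (4 were lower and 0 higher at an unadjusted p below 0.05, limma), where 0.0122% of all genes fell and 0% rose. Rsl24d1 itself had a log2 fold change of 0.10 ± 0.07 there, with a 95% interval of -0.05 to 0.25. The median of all tested genes was -0.12 in this comparison. With median of ratios scaling Rsl24d1 was higher by 0.25 ± 0.05 but did not pass (limma adjusted p = 0.075).

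The Rsl24d1 value sums the endogenous gene and the ectopic reading frame, which cannot be told apart at gene level. A protein-coding gene on the same strand, Gm20509, overlaps Rsl24d1 in the annotation, and whether it shares reads with Rsl24d1 was not tested. A processed pseudogene named Gm6457 carries a near copy of the reading frame, with 2 of 489 coding bases different. It was singled out after its values were seen. At day 0 it was listed at 0.417 to 0.855 TPM in si-CTL and 0.580 to 1.96 TPM in si-Rsl24d1 libraries with rescue, and at 0.128 to 0.312 and 0 to 0.109 TPM without. Every day 0 library with rescue thus lay above every one without. At day 4 it was listed at 0 in all 3 unrescued si-Rsl24d1 libraries and in 2 of 3 unrescued si-CTL libraries, and reached at most 0.534 and 0.838 TPM with rescue, with overlap in si-CTL cells. Whether these reads came from the ectopic frame was not tested.

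**Figure D3:**
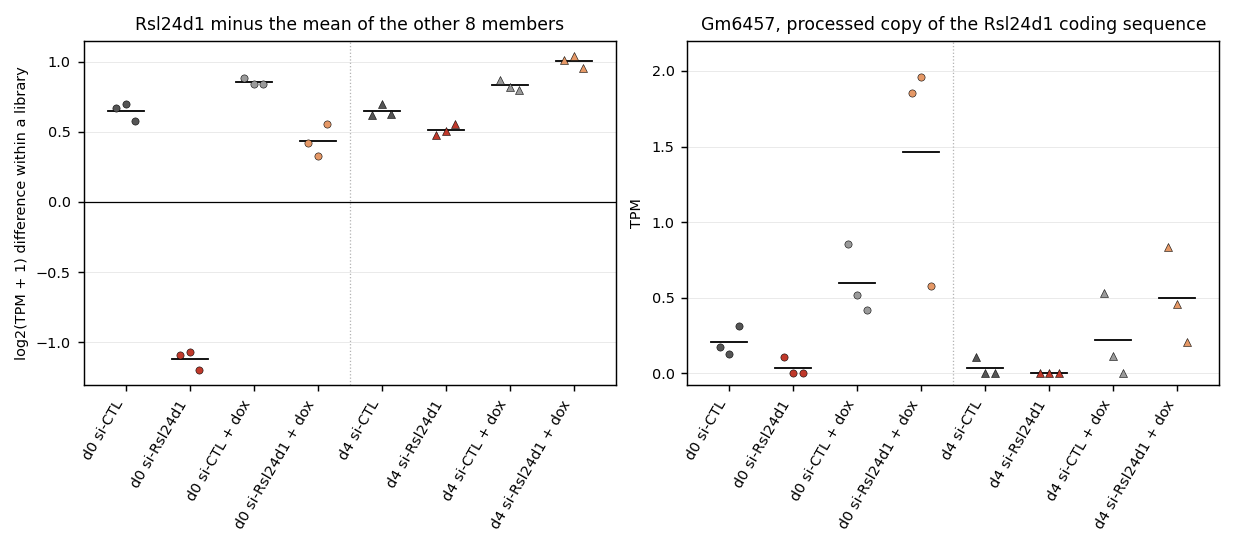
Left, Rsl24d1 minus the mean of the other 8 members in the same library (log2(TPM + 1) difference, y axis) for the 8 groups (x axis). Right, TPM of Gm6457, the processed copy of the Rsl24d1 coding sequence. Points are libraries (circles day 0, triangles day 4) and lines means of 3. On the left only the unrescued si-Rsl24d1 libraries of day 0 lie below 0, and on the right the rescued libraries of day 0 lie above 0.4 TPM.

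Set against the other 8 members within the same library, which does not depend on the scaling between libraries, Rsl24d1 differed by 0.65 ± 0.06 log2 units (SD, n = 3) in si-CTL cells at day 0 and by -1.12 ± 0.07 after knockdown. With rescue the difference was 0.86 ± 0.03 for si-CTL and 0.44 ± 0.12 for si-Rsl24d1. At day 4 it was 0.65 ± 0.04 and 0.52 ± 0.04 without rescue, and 0.83 ± 0.04 and 1.00 ± 0.04 with rescue. The unrescued si-Rsl24d1 cells of day 0 were thus the only group in which Rsl24d1 lay below the mean of the others. At day 4 with rescue, si-Rsl24d1 cells had the highest value of the 8 groups.

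All 9 members fell from day 0 to day 4 in si-CTL cells without rescue, with no overlap between the groups for any of them. In this comparison 36.7% of all tested genes fell, 24.1% rose and 43.5% were lower without overlap. The median of the members was -0.52 on the log2 scale, beside -0.10 over all tested genes. Eif6 fell most, from 165, 157 and 166 to 84.1, 86.2 and 85.6 TPM, a log2 fold change of -0.92 ± 0.04 (limma adjusted p = 2.1e-13), and was the only member differentially expressed. Gtpbp4 fell to 124, 128 and 132 TPM (-0.71 ± 0.05, 7.1e-11) and Mrto4 to 98.8, 101 and 94.1 TPM (-0.63 ± 0.04, 1.6e-11). Rsl24d1 fell to 95.9, 101 and 96.7 TPM, 69.3% of its day 0 mean (-0.52 ± 0.07, 1.6e-06).

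Among the cytoplasmic release factors, Efl1 fell by 0.60, Zfp622 by 0.41, Lsg1 by 0.40 and Sbds by 0.32 on the log2 scale (limma adjusted p of 5.8e-07, 4.5e-08, 0.00031 and 3.1e-06). The export adaptor Nmd3, the most abundant member, fell least, by 0.20 ± 0.05 (0.0011). Its call was lost after median of ratios scaling (-0.06, adjusted p = 0.093), whereas the other 8 members still passed at -0.19 to -0.79. All 9 calls of the unscaled fit held without any 1 library. Rplp0 fell by 0.50 ± 0.03 (9.3e-11), as did Mrto4, which holds its site, and Mrto4 minus Rplp0 within a library was -3.43 ± 0.02 at day 0 and -3.56 ± 0.04 at day 4. Rpl24 rose by 0.25 ± 0.07 (0.0019) while Rsl24d1 fell, so that Rsl24d1 minus Rpl24 went from -3.38 ± 0.12 to -4.15 ± 0.02 log2 units.

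Most of the 39 other late pre-60S genes were lower at day 4 as well. Of the 39, 27 fell, 7 rose and 5 did not pass, where 36.7% of all tested genes fell and 24.1% rose. The median of the list was -0.47, beside -0.10 over all tested genes. Nuclear maturation genes fell in 16 of 19 cases and export genes in 6 of 8, against 3 of 6 recycling genes and 2 of 6 late-loaded ribosomal proteins. Nol9, a polynucleotide kinase of pre-rRNA processing (-1.32), Mdn1, the giant AAA ATPase that removes early factors (-1.30), and Rrp12, an export factor (-1.19), fell most. The largest rises were those of Nsa2 (0.50), Spata5l1, part of the ATPase complex that releases RSL24D1 in the cytoplasm (0.48), and Rpl10 (0.41). After scaling by median of ratios, 23 fell and 8 rose.

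**Figure D4:**
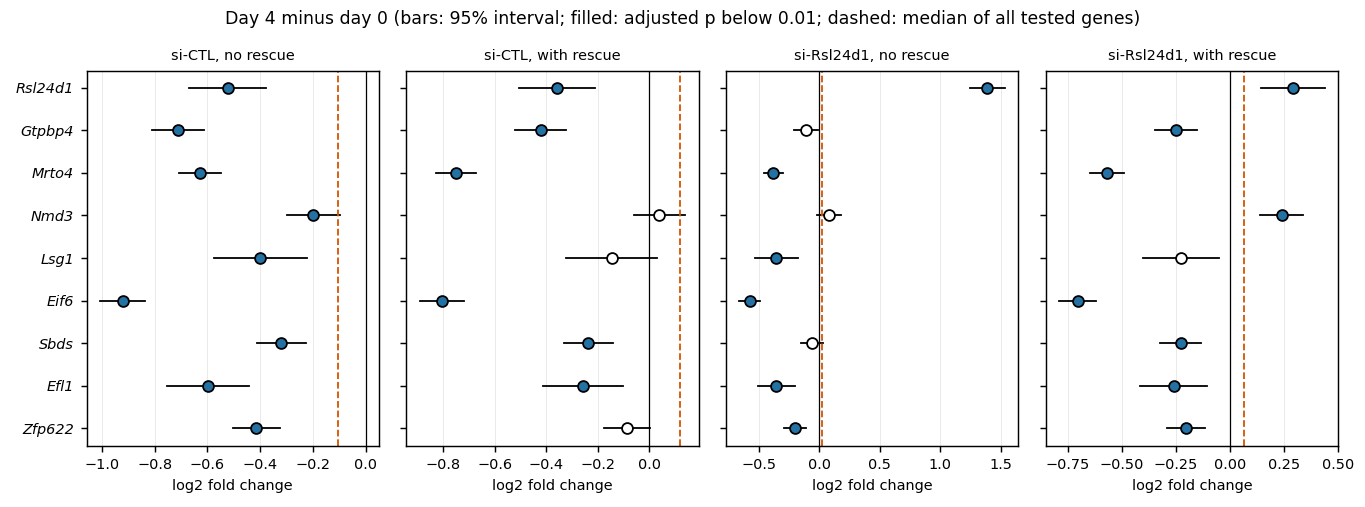
log2 fold change of day 4 over day 0 (x axis, its range differing between panels) for each member (y axis) in si-CTL and si-Rsl24d1 cells, without and with rescue. Points are limma estimates with 95% intervals, filled where the adjusted p was below 0.01, and the dashed line is the median of all tested genes. All 9 points are filled and below 0 in unrescued si-CTL cells, whereas Rsl24d1 lies at 1.39 in unrescued si-Rsl24d1 cells.

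In the other groups 5 or 6 members fell from day 0 to day 4. In si-CTL cells with rescue 6 members fell and 0 rose (0 at an unadjusted p below 0.05), where 22.4% of all genes fell and 36.8% rose. Eif6 (-0.80 ± 0.04) and Mrto4 (-0.75 ± 0.04) fell most and Rsl24d1 fell by 0.36 ± 0.07 (limma adjusted p = 0.00015), but Nmd3 (0.04, 0.48), Lsg1 (-0.15, 0.13) and Zfp622 (-0.09, 0.076) did not pass. The median of all genes was 0.12 here, and after median of ratios scaling all 9 members fell, Nmd3 by 0.11 (adjusted p = 0.0054). The Efl1 call (-0.26, 0.0044) was lost without replicate 1 or 2 of either group (adjusted p up to 0.028).

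In unrescued si-Rsl24d1 cells 5 members fell and 1 rose from day 0 to day 4, where 26.4% of all genes fell and 29.4% rose. The one that rose was Rsl24d1, from 36.6, 37.9 and 32.7 to 89.3, 96.3 and 99.8 TPM, by 1.39 ± 0.07 on the log2 scale (limma adjusted p = 1.1e-12). Eif6 fell by 0.58, Mrto4 by 0.38, Efl1 by 0.36, Lsg1 by 0.36 and Zfp622 by 0.20, while Gtpbp4 (-0.11, 0.048), Sbds (-0.06, 0.23) and Nmd3 (0.08, 0.14) did not pass. In rescued si-Rsl24d1 cells 6 members fell and 2 rose, where 25.8% of all genes fell and 32.4% rose. The 2 that rose were Rsl24d1 (0.29 ± 0.07, 0.0010), from 103, 96.1 and 121 to 134, 131 and 127 TPM, and Nmd3 (0.24 ± 0.05, 0.00018). The Rsl24d1 call was lost without replicate 2 of rescued si-Rsl24d1 at day 0 (0.22, adjusted p = 0.011), and that of Efl1 (-0.26, 0.0043) without replicate 3 of that group or replicate 1 or 2 of its day 4 group (up to 0.034). In rescued si-CTL, unrescued si-Rsl24d1 and rescued si-Rsl24d1 cells, 22.4%, 26.4% and 25.8% of all genes fell, and 36.8%, 29.4% and 32.4% rose. Of the 39 other late pre-60S genes, 22, 18 and 24 fell and 6, 5 and 5 rose, in the same order. Nle1, a WD40 substrate of MDN1, and Rrs1, a factor of 5S particle assembly, were the 2 with the largest falls in each of these groups, at -1.10 to -1.12 and -0.96 to -1.04.

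At day 4, Rsl24d1 no longer separated si-Rsl24d1 from si-CTL cells without rescue. It measured 95.9, 101 and 96.7 TPM with si-CTL, and 89.3, 96.3 and 99.8 TPM with si-Rsl24d1, with overlap between the groups. The log2 fold change was -0.04 ± 0.07 (limma adjusted p = 0.66), with a 95% interval of -0.19 to 0.11. The median of all tested genes was 0.13 in this comparison, and with median of ratios scaling Rsl24d1 was lower by 0.21 (adjusted p = 0.0026). Within a library, Rsl24d1 minus the mean of the other 8 members was 0.62 to 0.70 with si-CTL and 0.48 to 0.56 with si-Rsl24d1, without overlap.

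Of the 9 members, 2 rose and 0 fell in si-Rsl24d1 cells at day 4 (0 fell at an unadjusted p below 0.05, limma), where 24.9% of all genes rose and 6.04% fell. Gtpbp4 rose from 124, 128 and 132 to 142, 153 and 152 TPM (0.22 ± 0.05, limma adjusted p = 0.0012). Sbds, which is mutated in Shwachman-Diamond syndrome, rose from 45.4, 45.8 and 47.8 to 54.1, 55.0 and 54.4 TPM (0.23 ± 0.04, 0.00047). In neither gene did the groups overlap, but with median of ratios scaling neither passed, at 0.05 (adjusted p = 0.46) and 0.07 (0.26). Among the 39 other genes, 9 rose and 4 fell, and after that scaling 5 rose and 16 fell. Their 13 calls went to 7, 8 and 7 without replicate 1 of si-CTL, replicate 2 of si-Rsl24d1 and replicate 3 of si-Rsl24d1. The largest rises were those of Gnl3l, a nucleolar GTPase (0.46), Xpo1, the exportin of NMD3 (0.43), and Spata5, an ATPase that extracts RSL24D1 (0.38), and the largest falls those of Zfp593 (-0.35), Rplp2 (-0.33) and AU022252, a partner of the SPATA5 complex (-0.32). All but Spata5 passed in the same direction after that scaling.

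The effect of the siRNA differed between day 0 and day 4 by 1.91 ± 0.10 on the log2 scale for Rsl24d1 (interaction, limma adjusted p = 2.7e-11). In this test 7 members, the targeted Rsl24d1 among them, were higher and 0 lower (0 at an unadjusted p below 0.05), where 22.1% of all genes were higher and 8.83% lower. The difference was 0.60 ± 0.07 for Gtpbp4 (7.6e-07), 0.35 ± 0.06 for Eif6 (1.0e-04), 0.28 ± 0.07 for Nmd3 (0.0026) and 0.24 ± 0.05 for Mrto4 (0.0010). Sbds (0.26 ± 0.06, 0.0030) lost its call without replicate 1 of si-CTL or 3 of si-Rsl24d1 at day 0 (adjusted p of 0.01005 and 0.0115). Zfp622 (0.21 ± 0.06, 0.0080) kept it only without replicate 2 of si-CTL or of si-Rsl24d1 at day 0, replicate 2 of si-CTL at day 4 or replicate 1 of si-Rsl24d1 at day 4, with adjusted p up to 0.028 in the other 8 fits. The median of all genes was 0.14 in this test, and with median of ratios scaling 3 members passed, Rsl24d1 (1.76), Gtpbp4 (0.45) and Eif6 (0.19).

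With the rescue at day 4, no member differed between si-Rsl24d1 and si-CTL cells (1 was lower and 1 higher at an unadjusted p below 0.05, limma), where 3.53% of all genes fell and 2.33% rose. Rsl24d1 measured 126, 114 and 114 TPM in si-CTL and 134, 131 and 127 TPM in si-Rsl24d1 libraries with rescue, a log2 fold change of 0.15 ± 0.07 (adjusted p = 0.19). These groups did not overlap, with si-Rsl24d1 the higher. Rescued against unrescued si-Rsl24d1 cells at day 4 gave 1 member that rose and 0 that fell (3 at an unadjusted p below 0.05), where 0.936% of all genes rose and 4.23% fell. That member was Rsl24d1, which the rescue supplies, by 0.45 ± 0.07 (limma adjusted p = 0.00032), against the 1.55 of day 0. In si-CTL cells at day 4, with against without rescue, Gtpbp4 rose by 0.27 ± 0.05 (0.0015) and 0 members fell (1 at an unadjusted p below 0.05), where 8.85% of all genes rose and 1.34% fell. That call was lost without replicate 1 of either group (adjusted p of 0.013 and 0.012) and with median of ratios scaling (0.14, 0.044), under which Eif6 (-0.15) and Mrto4 (-0.27) passed as lower. Rsl24d1 itself measured 95.9, 101 and 96.7 TPM without and 126, 114 and 114 TPM with rescue in si-CTL cells, a log2 fold change of 0.27 ± 0.07 that did not pass (0.011).

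**Figure D5:**
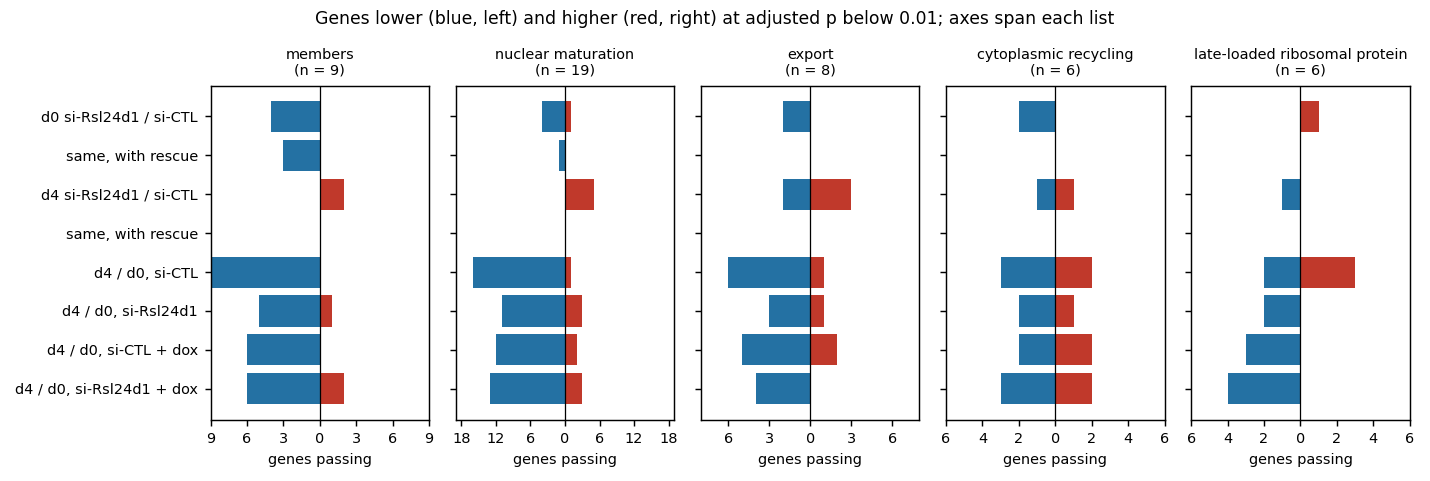
Number of genes (x axis, counted to the left where lower and to the right where higher) that passed an adjusted p of 0.01 in 8 comparisons (y axis), for the 9 members and for the 4 roles of the 39 other late pre-60S genes. Each axis spans the size of its list. In the comparison of day 4 with day 0 in si-CTL cells all 9 members and 16 of 19 nuclear maturation genes are on the left.

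The profile of Rsl24d1 over the 8 group means carries the siRNA and the rescue, which act on this gene itself. The other members were not among the genes nearest to it in profile. Likeness was measured as the root mean square distance between centred profiles of log2(TPM + 1), for which Rsl24d1 has a distance of 0.61 from a flat line. The 5 nearest of all tested genes were Nupr1, a stress-induced chromatin factor (0.34), the predicted gene Gm3219 (0.35), Patl2, an RNA-binding protein of the oocyte (0.35), Phgdh, the first enzyme of serine synthesis (0.35), and Mov10, an RNA helicase (0.36). Of the members, Gtpbp4 came nearest at rank 1639 (0.57) and Eif6 was farthest at rank 11258 (0.72). The distance takes in the size of a change as well as its shape. It therefore cannot decide whether the members share a pattern with Rsl24d1 apart from its targeting and rescue. These distances describe 8 means that share libraries and carry no test.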

How the data were processed

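RNA-seq of 24 CGR8 libraries in 8 labelled groups was analysed from 1 table. The authors deposited log2(TPM + 1) values per gene symbol, and each library sums to 1000000 TPM, so depth is unknown and no count test was run. Their processing notes name STAR 2.7.8a, Salmon 1.4.0 and GRCh38, whereas the methods name a GRCm38 index of protein-coding transcripts, although the table lists pseudogenes. The labels and the methods also differ on the time after transfection, the library kit, LIF during RA treatment and the medium. No sample column was left unused.

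Genes with a mean of at least 0.5 were fitted with limma 3.58.1 (R 4.3.3) as 8 group means with an intensity trend and moderated tests (two-sided), and p-values were Benjamini-Hochberg adjusted over 16447 genes. An exact permutation test of 3 against 3 libraries cannot go below 0.1. The fit was tested on simulated data. Alternatives were the added pseudocount (0.1 or 2), the filter (none or 1.5), the threshold (0.05, or 0.01 with 1.8-fold), median of ratios scaling, rescaling without the listed symbols, no trend, only the groups compared, a replicate block and each library left out. Promoters came from RefSeq (GRCm38.p6) and gene models from GENCODE vM21. Coding sequences were compared with blastn 2.17.0.

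The members, the list of 39 genes and the markers were chosen with earlier results of these data known. Named genes were the members, Rpl24, Rplp0, Rpl10, at most 3 rises and 3 falls of the list per comparison, and the 5 profiles nearest to Rsl24d1. Gm6457 was chosen after its values were seen. Gm20509 was named for its overlap with Rsl24d1, and single markers for going against most of their list.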

Additional observations from a re-analysis of the deposited data

Results flagged for a closer look

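The effect of si-Rsl24d1 without rescue differed between day 0 and day 4 in 7 of the 9 members, the targeted Rsl24d1 among them. This was the limma interaction in the fit of all 24 libraries (adjusted p below 0.01), where 22.1% of all genes were higher and 8.83% lower. Fitted on only the groups compared, Sbds (limma adjusted p = 0.015) and Zfp622 (0.028) did not pass. The difference, day 4 minus day 0 on the log2 scale, was 1.91 for Rsl24d1, 0.60 for Gtpbp4, 0.35 for Eif6, 0.28 for Nmd3, 0.26 for Sbds, 0.24 for Mrto4 and 0.21 for Zfp622. After median of ratios scaling the difference passed for Rsl24d1, Gtpbp4 and Eif6 only. At day 0 the knockdown effect on Rsl24d1 also differed between cells with and without rescue, by 1.45 on the log2 scale. Groups of 3 libraries were too small to be searched for single outlying libraries.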

How the results depend on the processing

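Of 1260 fold changes of members refitted under other settings, 1194 stayed on their side of the threshold, as did 824 of 864 with 1 library left out, and none of those that passed in both fits changed sign. The fold change that reversed and passed was that of Nmd3 from day 0 to day 4 in rescued si-CTL cells, from 0.04 (not passed) to -0.11 with median of ratios scaling, and 78 of the 2124 refits changed sign without passing. That scaling gave 7 members called for si-Rsl24d1 against si-CTL at day 0, 4 for rescue in si-Rsl24d1 cells at day 0, 1 for si-Rsl24d1 at day 4 (Rsl24d1, -0.21), 2 for each rescue comparison at day 4 and 3 for the interaction of siRNA and day. An adjusted p below 0.05 gave 7 for si-Rsl24d1 at day 0, 3 for rescue in si-CTL cells at day 0, and 2 and 4 for rescue at day 4 in si-Rsl24d1 and si-CTL cells. A 1.8-fold limit left 1 member in si-Rsl24d1 against si-CTL at day 0, rescue in si-Rsl24d1 cells at day 0, the day comparisons without rescue and the interaction with day, and 0 in the other comparisons that had any, except the interaction with rescue. Fits of only the groups compared left 0 in rescued si-Rsl24d1 against si-CTL at day 0 (Rsl24d1 -0.50), si-Rsl24d1 at day 4 and both rescue comparisons at day 4, and 1 in rescue of si-Rsl24d1 cells at day 0. For rescue in si-Rsl24d1 cells at day 0, no filter and no trend also left 1, and no trend left 1 in the rescued knockdown at day 0. For rescue in si-CTL cells at day 4, the 1.5 filter gave 2 and rescaling 3. With 1 library left out, counts ranged from 1 to 2 in the rescued knockdown at day 0, were 1 in rescue of si-Rsl24d1 cells at day 0, and ranged from 0 to 1 in rescue of si-CTL cells at day 4. Shares of all genes were counted for the fit as reported only, so none stands beside the counts under other settings. The causes of these changes were not tested.

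The replicate numbers share only a number: residuals of same-numbered libraries correlated at -0.0173 on average over 84 pairs (-0.2226 to 0.1688), against 0.0087 over 168 other pairs. With the replicate block, 2 members instead of 3 were called in the rescued knockdown at day 0, 1 instead of 2 in rescue of si-Rsl24d1 cells at day 0 and 6 instead of 7 in the interaction with day, and the count did not change in the other 11 comparisons. Unknown depth leaves the counting error behind the low values of Efl1 and Gm6457 unmeasured.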
